A study of Homo sapiens with 6 samples.

Results

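The collagen genes were read from 4sU-seq counts. The cells were A375, an established line from a human melanoma. Gene identifiers were matched to GRCh38 symbols, and protein-coding genes were kept whose symbol is COL followed by a number, the letter A and a number. This gave 44 genes of the 58243 identifiers counted. By the kind of assembly their chains form, 11 were fibrillar collagens, 9 belonged to the basement membrane (6 of type IV, with COL7A1, COL15A1 and COL18A1) and 24 were other collagens, among them type VI and the FACITs. The EV group held 3 libraries (1, 2 and 3) of A375 cells stably transfected with an empty vector. The PRL3 group held 3 libraries (9, 10 and 11) of A375 cells stably transfected with a plasmid for HA-tagged human PRL3. Both groups share the parental line, the stable transfection and culture in 100 µg/ml Hygromycin B, and both were given 500 µM 4-thiouridine for 20 min before RNA was isolated, so that RNA made in the pulse could be purified. Each group is 1 stably transfected line, so a property of that line and an effect of PRL3 cannot be told apart. Nothing states that the libraries came from separate cultures, and p-values then measure only the spread between these libraries.

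A collagen is a trimer of alpha chains that wind into a triple helix. Fibrillar collagens form the banded fibres of skin, bone and cartilage, type IV collagen forms the sheet that holds the basement membrane together, type VI forms beaded filaments around cells, and FACITs sit on the surface of fibrils. Many of these proteins are heterotrimers, with chains of different genes in set proportions. The chains are hydroxylated and folded in the endoplasmic reticulum (ER), exported in large carriers, trimmed and crosslinked outside the cell, and read by integrins and discoidin domain receptors. Melanoma cells both make collagens and meet those of the dermis.

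The libraries held between 47158709 and 57952035 gene counts in EV and between 36532207 and 56511290 in PRL3. Uniquely aligned reads outside annotated exons made up 28.7% to 41.1% in EV and 62.8% to 69.1% in PRL3, a difference that moves with every comparison below and whose part in them was not tested. The gene counts are of exon reads in the purified RNA, so carried-over mRNA can add to them, by an amount that was not tested. For its elongation measure the paper used intronic reads, to limit such carry-over and effects of splicing. Nascent RNA below means these exon counts. PTP4A3, the gene of PRL3, had between 161 and 279 normalized counts in EV libraries and between 22065 and 28767 in PRL3 libraries, as the labels say. Normalized counts are counts scaled to a common library size by TMM factors, which were 0.816 to 0.894 in EV and 1.12 to 1.25 in PRL3. SOX10 and S100B, both markers of the melanocyte lineage, had at least 10593 and 1053 normalized counts in every library but were lower in PRL3 (log2 fold changes -0.85, adjusted p = 0.00213, and -1.38, adjusted p = 3.12e-05, both from edgeR), and SOX10 did not pass with library size alone (-0.36). MITF, another lineage marker, had 1208 to 1492 normalized counts in EV and 1714 to 1809 in PRL3, so PRL3 lay above. Its log2 fold change of 0.36 (adjusted p = 0.0738, edgeR) did not pass. PMEL had -0.33 (adjusted p = 0.664, edgeR) and overlapping libraries. By contrast, MLANA, TYR, TYRP1 and DCT had at most 20 reads.

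The genes of type IV collagen lie in head-to-head pairs, in which a pair of genes is transcribed away from a shared start region. In the GENCODE annotation, COL4A4 and COL4A3 start 171 bases apart on chromosome 2 and COL4A6 and COL4A5 start 341 bases apart on chromosome X. The COL4A1 and COL4A2 start sites on chromosome 13 have 126 bases between them in RefSeq, and the annotated COL4A2 gene of GENCODE begins 1345 bases inside COL4A1. Sequences from between these starts are shown because each pair shares 1 start region and was measured as separate genes. They come from RefSeq (GRCh38.p14), are written 5′ to 3′ on the plus strand, and cover chr13:110307158-110307257, chrX:108439588-108439837 and chr2:227164454-227164623. The COL4A1-COL4A2 stretch is 100 of the 126 bases, up to an annotated exon. That of COL4A6-COL4A5 is only the 250 bases nearest the COL4A5 start. Regions below mean the stretches shown. The 250 bases before the start of COL6A2 (chr21:46097862-46098111), whose gene was among the most reduced, are shown beside them.
COL4A1-COL4A2: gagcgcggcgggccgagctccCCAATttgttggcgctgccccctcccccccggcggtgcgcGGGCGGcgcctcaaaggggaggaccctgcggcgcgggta
COL4A6-COL4A5: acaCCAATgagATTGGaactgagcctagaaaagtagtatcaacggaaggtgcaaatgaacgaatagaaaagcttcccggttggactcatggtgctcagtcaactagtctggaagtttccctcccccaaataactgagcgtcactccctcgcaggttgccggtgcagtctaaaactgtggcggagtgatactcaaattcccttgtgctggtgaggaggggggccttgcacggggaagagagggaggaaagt
COL4A4-COL4A3: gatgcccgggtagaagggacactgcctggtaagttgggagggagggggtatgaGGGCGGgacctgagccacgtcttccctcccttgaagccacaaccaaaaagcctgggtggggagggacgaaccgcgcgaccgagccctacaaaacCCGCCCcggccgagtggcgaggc
COL6A2: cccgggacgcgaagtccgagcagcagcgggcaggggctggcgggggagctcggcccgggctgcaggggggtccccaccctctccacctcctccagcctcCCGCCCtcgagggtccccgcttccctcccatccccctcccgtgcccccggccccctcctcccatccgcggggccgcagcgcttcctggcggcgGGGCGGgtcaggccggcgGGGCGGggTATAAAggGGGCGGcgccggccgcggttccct

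Capitals mark a CCAAT box (CCAAT), a GC box (letters GGGCGG) and a TATA box (letters TATAAA), read on either strand, and no search letters overlapped another motif here. The COL4A1-COL4A2 region held a CCAAT and a GC box, the COL4A6-COL4A5 region held CCAAT on both strands, the COL4A4-COL4A3 region held GC boxes, and the COL6A2 window held GC boxes and a TATAAA. G and C made up 78% of the COL4A1-COL4A2 region, 51.2% of COL4A6-COL4A5, 65.9% of COL4A4-COL4A3 and 79.6% of COL6A2. RefSeq promoter windows were found for 32 of the 44 genes, 44 windows in all. In the 250 bases before the start, CCAAT stood in 12 of these 44 windows and in 32.0% of the 35116 windows of all genes, GGGCGG in 24 and in 42.6%, and TATAAA in 8 and in 10.7%. These matches are letters in a window and show no binding. COL1A1, COL1A2, COL2A1, COL3A1, COL5A2, COL6A1, COL6A5, COL8A1, COL9A3, COL14A1, COL20A1 and COL22A1 were not among the windows.

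In EV cells a few collagen genes carried most of the collagen reads. Levels are given per length, as reads per kilobase of exon per 1000000 gene counts. COL9A3, a chain of the FACIT type IX on chromosome 20 (62816244 to 62841159), had the highest level at 90.8 ± 15.3 (SD, n = 3), and 98.0% of protein-coding genes lay at or below it. COL5A2, a chain of the fibrillar type V on chromosome 2 (189031898 to 189225312), followed at 48.8 ± 5.97. COL4A2 (24.1 ± 3.22) and COL6A1 (21.0 ± 4.26) came next, and their EV libraries overlapped in range.

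Further down stood COL4A1 at 11.6, COL27A1 at 9.97, COL6A2 at 8.78, COL19A1 at 4.59, COL9A2 at 4.17 and COL13A1 at 2.77. The EV ranges of COL27A1 and COL6A2 overlapped, as did those of COL19A1 and COL9A2. COL1A1 and COL1A2, the chains of type I collagen that make up most of the dermis, had levels of only 0.157 and 0.142, and COL3A1, the chain of type III collagen, had 0.0477. In PRL3 cells COL5A2 stood first at 37.2 ± 2.88, with COL9A3 at 34.0 ± 5.66, COL4A2 at 21.5 ± 0.76 and COL27A1 at 17.2 behind it, and the ranges of COL5A2 and COL9A3 overlapped there.

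**Figure D1:**
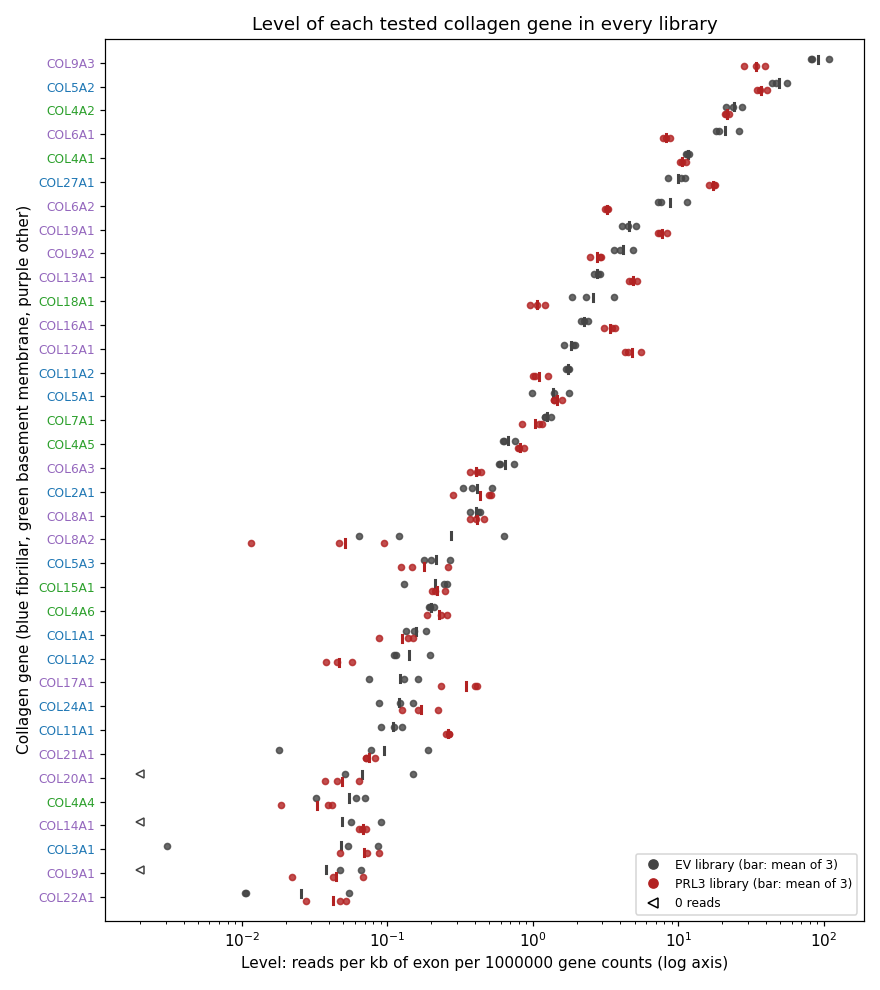
Level of the 36 tested collagen genes in each library, in reads per kilobase of exon per 1000000 gene counts on a log axis, ordered by the EV mean, with grey points for EV, red points for PRL3 and a bar at each mean of 3. COL9A3 tops the EV libraries at a mean of 90.8, while COL1A1, COL1A2 and COL3A1 lie below 0.2.

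Some partner chains of the same heterotrimer were far from equal in nascent RNA, and others were closer. These ratios compare genes within a library, per length, and so do not depend on the scaling between libraries. They do depend on the merged exon lengths, such as 21516 bases for COL6A3 and 5536 for COL6A1. COL5A2 was 36.1 times the level of COL5A1 in EV and 25.4 times in PRL3. COL9A3 was 21.7 times COL9A2 in EV and 12.1 times in PRL3, and COL6A1 was 32.6 times COL6A3 in EV and 20.3 times in PRL3. The head-to-head pair COL4A1 and COL4A2 was closer to balance, with COL4A2 2.07 times COL4A1 in EV and 2.02 times in PRL3. This was not particular to that pair: COL6A1 was 2.42 times COL6A2 in EV and 2.56 times in PRL3. COL1A1, on few reads, was 1.14 times COL1A2 in EV and 2.66 times in PRL3. On the log2 scale the COL4A1 to COL4A2 ratio was -1.05 ± 0.15 (SD, n = 3) in EV and -1.01 ± 0.02 in PRL3, a difference of 0.04 that lies within the spread of the EV libraries. In the other expressed head-to-head pair, COL4A5 was 3.35 times COL4A6 in EV and 3.64 times in PRL3. The log2 ratios of COL4A6 to COL4A5 were -1.74 ± 0.09 and -1.86 ± 0.18, and the libraries of the groups overlapped.

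The reads of all 44 genes summed to 111988 ± 13562 normalized counts (SD, n = 3) in EV and 66569 ± 5522 in PRL3. Without TMM scaling the difference was smaller: collagen genes took 0.188%, 0.220% and 0.191% of the gene counts in EV and 0.162%, 0.171% and 0.169% in PRL3. The groups did not overlap on either scale, with PRL3 below. In bulk libraries, fewer cells that make a collagen and less nascent RNA per cell cannot be told apart.

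The make-up of the collagen reads shifted. COL9A3 gave 21.9% of the collagen reads in EV and 9.82% in PRL3, and the type VI genes gave 8.79% ± 1.08 and 4.29% ± 0.21 (SD, n = 3). In the other direction, COL27A1 gave 6.27%, 6.64% and 8.10% in the EV libraries and 15.6%, 14.3% and 13.4% in the PRL3 libraries, and COL12A1 gave 1.74% and 5.38%. COL4A2 kept 23.2% and 24.8%. By class, fibrillar genes gave 26.9% ± 2.72 in EV and 32.8% ± 1.27 in PRL3, basement membrane genes 34.1% ± 1.11 and 36.1% ± 0.64, and the other collagens 39.0% ± 1.91 and 31.1% ± 0.79. None of these 3 classes overlapped between the groups. The fibrillar rise was not shared across that class. COL27A1 is a fibrillar gene, and its share rose by more than that of the class. COL5A2, the fibrillar gene with the highest level in EV, gave 15.7% to 21.6% in EV and 14.9% to 17.5% in PRL3, with overlap.

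**Figure D2:**
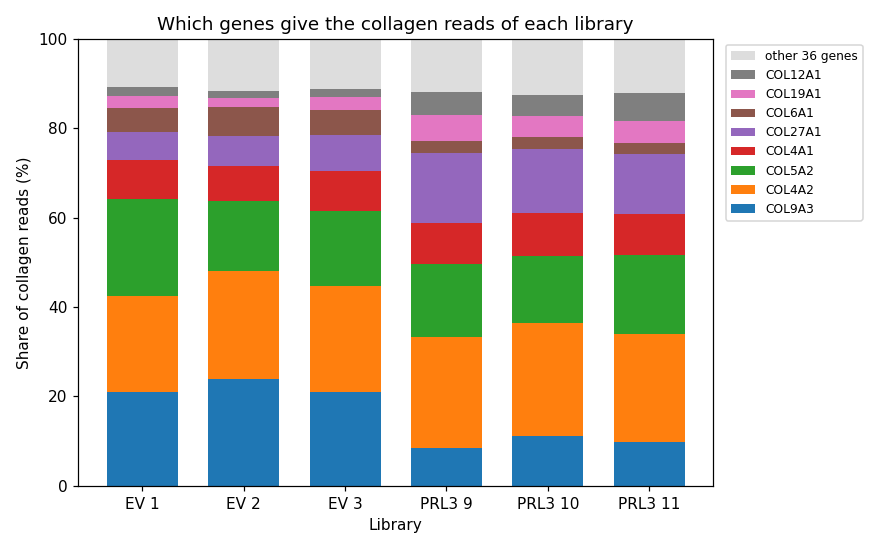
Share of all collagen reads (percent) that 8 named genes and the other 36 genes took in each of the 6 libraries, as stacked bars that sum to 100. The COL9A3 block falls from a mean of 21.9% in EV to 9.82% in PRL3, while the COL27A1 block is at most 8.10% in EV and at least 13.4% in PRL3.

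In PRL3 cells 13 collagen genes were lower and 1 was higher than in EV (adjusted p under 0.05, quasi-likelihood test of edgeR, Benjamini-Hochberg over all 23884 genes tested). The lower genes were COL9A3, COL6A1, COL6A2, COL6A3, COL18A1, COL1A2, COL8A2, COL11A2, COL9A2, COL5A2, COL7A1, COL4A2 and COL4A1, and the higher gene was COL12A1. Among all genes tested, 42.7% passed in either direction, with 22.7% lower and 20.0% higher. Among the protein-coding ones, 31.6% were lower and 15.2% higher, and the 13 lower of 36 collagen genes stand near that share. The median log2 fold change was -0.55 over the 36 collagen genes that passed the filter on low counts, 0.11 over all genes and -0.15 over protein-coding genes. The 3 PRL3 libraries were all under the lowest EV library in 15 of the 36 genes and all over the highest in 6, against 26.6% and 29.7% of all genes tested.

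The split depends on the scaling. With library size alone, 10 collagen genes were lower and 7 higher, beside 12.9% lower and 39.8% higher among all genes, whose median was 0.60. With all uniquely aligned reads as the library size, 18 were lower and 0 higher, beside 35.5% and 8.17% of all genes, whose median was -0.36 (COL12A1 then had an adjusted p of 0.0718 in edgeR). DESeq2 gave 13 lower and 1 higher, beside 24.5% and 20.6% of all genes, and limma-voom 12 and 1, beside 22.6% and 22.3%. Upper-quartile factors gave 13 lower and 5 higher, beside 18.7% and 26.6% of all genes. A fit of protein-coding genes only gave 13 and 6, beside 26.7% and 23.9% of the genes in it.

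The medians of the classes were -0.41 in the 11 fibrillar genes, of which 3 were lower, -0.63 in the 8 tested basement membrane genes, of which 4 were lower, and -0.48 in the 17 other collagens, of which 6 were lower and 1 higher. These signs did not hold under every setting. With library size alone the medians were 0.071 (fibrillar), -0.14 (basement membrane) and 0.015 (other). With limma-voom, which also used TMM factors, the median of the other collagens was 0.10. Within the last class, 3 of 3 tested type VI genes were lower, with a median of -1.84. Of the 10 FACIT genes 2 were lower and 1 was higher. The 2 tested transmembrane collagens, COL13A1 and COL17A1, both had positive fold changes that did not pass the threshold. Beside all these class counts, 31.6% of protein-coding genes were lower and 15.2% higher.

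**Figure D3:**
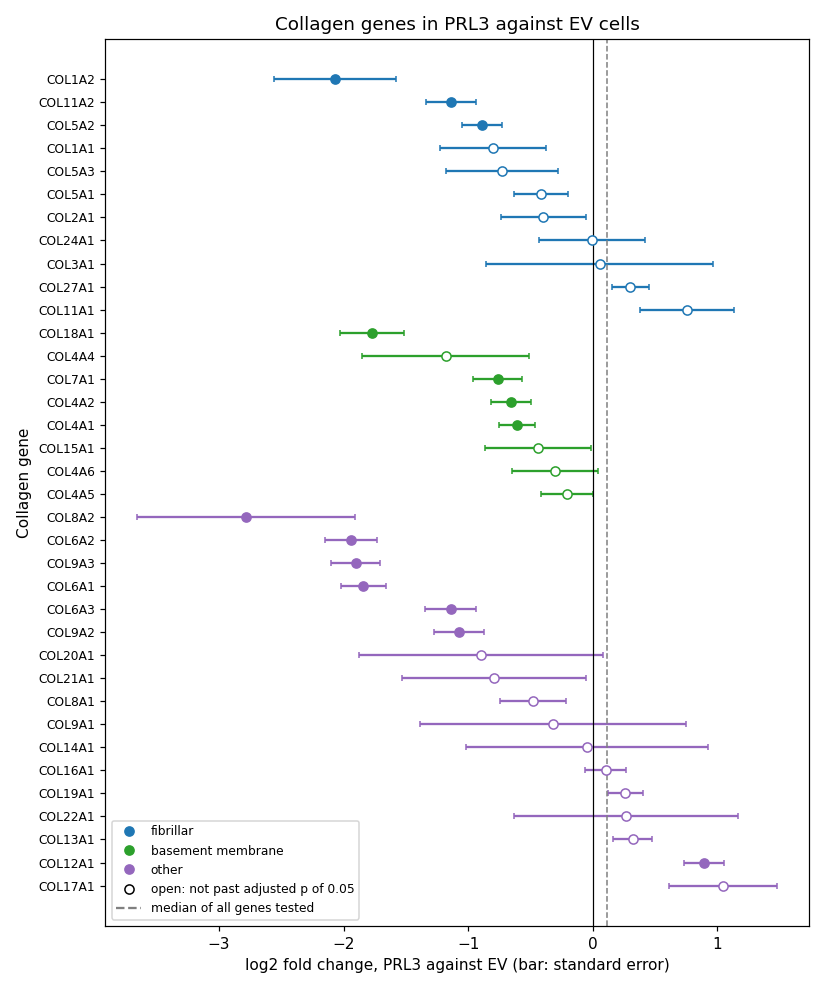
Log2 fold change of PRL3 against EV for the 36 tested collagen genes, grouped by class, with standard errors, filled points for an adjusted p under 0.05 and a dashed line at the median of all genes tested (0.11). The type VI genes COL6A1 and COL6A2 lie near -1.9, and COL12A1 at 0.89 is the 1 filled point above 0.

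Of the basement membrane collagens, the abundant type IV pair fell modestly. COL4A1, on chromosome 13 (110148963 to 110307157), had 9536, 10091 and 8882 normalized counts in the EV libraries and 5616, 6917 and 6145 in the PRL3 libraries. COL4A2 had 23423, 30671 and 24030 in EV and 15132, 18093 and 16229 in PRL3. The groups did not overlap in either gene, with PRL3 below. The log2 fold changes were -0.61 (SE 0.15, adjusted p = 0.00454) for COL4A1 and -0.66 (SE 0.16, adjusted p = 0.0049) for COL4A2, and with library size alone neither passed (-0.12 and -0.17).

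The minor type IV chains did not pass the threshold. COL4A5 had between 392 and 515 normalized counts in EV and between 353 and 431 in PRL3, a log2 fold change of -0.21 (SE 0.21), and COL4A6 had -0.30 (SE 0.34). With library size alone both turned positive, at 0.29 and 0.18. COL4A4 had between 21.9 and 48.1 normalized counts in EV and between 8.24 and 20.8 in PRL3, and COL4A3 had at most 12 reads in any library.

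COL18A1, whose C-terminal fragment is endostatin, showed the largest fall of the class. It had 1130, 1771 and 831 normalized counts in EV and 305, 378 and 406 in PRL3, a log2 fold change of -1.78 (SE 0.26, adjusted p = 0.000128). SLC19A1, a folate carrier on the opposite strand, shares 1563 exon bases with it and was lower too (-0.95), and the stranded counting assigns their reads apart. COL7A1, the chain of the anchoring fibrils below the epidermis, had 779, 775 and 781 in EV and 352, 514 and 508 in PRL3, with a log2 fold change of -0.76 (SE 0.20, adjusted p = 0.00715) that became -0.28 and did not pass with library size alone. COL15A1, the relative of COL18A1, had a fold change of -0.44 (SE 0.42) and overlapping libraries.

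All 3 tested type VI genes fell. COL6A1 and COL6A2 lie in the same orientation on chromosome 21 (45981770 to 46005050 and 46098112 to 46132848), and COL6A3 lies on chromosome 2. COL6A1 had 5757, 8285 and 5553 normalized counts in EV and 1704, 2028 and 1733 in PRL3. COL6A2 had 2319, 3550 and 2038 in EV and 663, 727 and 665 in PRL3. COL6A3 had 728, 918 and 670 in EV and 335, 397 and 316 in PRL3. In each gene the highest PRL3 library stayed under the lowest EV library, and EV 2 was the highest of all.

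The log2 fold changes were -1.84 (SE 0.18, adjusted p = 1.34e-05) for COL6A1, -1.94 (SE 0.21, adjusted p = 1.76e-05) for COL6A2 and -1.14 (SE 0.20, adjusted p = 0.00058) for COL6A3. The ratio of COL6A2 to COL6A1 within a library was -1.27 ± 0.11 on the log2 scale in EV and -1.35 ± 0.06 in PRL3, with overlapping libraries. Against COL4A2, COL6A1 fell from a log2 ratio of -0.21 ± 0.11 to -1.38 ± 0.04 (SD, n = 3), which no scaling between libraries can change. The other type VI genes, COL6A5 and COL6A6, had 0 reads and at most 1 read in a library.

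Among the fibrillar collagens, COL5A2 had the highest level in EV. It had 23327, 19892 and 16959 normalized counts in EV and 9949, 10750 and 11731 in PRL3, and fell by 0.89 on the log2 scale (SE 0.16, adjusted p = 0.000657). Its partner COL5A1 had between 631 and 1138 in EV and between 591 and 699 in PRL3, with overlapping libraries and a log2 fold change of -0.41 (SE 0.22, adjusted p = 0.14). COL11A2, a chain of the cartilage fibril type XI, had 714, 744 and 693 in EV and 286, 394 and 294 in PRL3, a log2 fold change of -1.14 (SE 0.20, adjusted p = 0.000578).

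COL1A2 was lower on few reads. It had 101, 60 and 70 reads in the EV libraries and 15, 35 and 18 in the PRL3 libraries, or 123, 72.2 and 63.7 against 15.4, 26.0 and 19.3 normalized counts, and a log2 fold change of -2.07 (SE 0.49, adjusted p = 0.00405). COL1A1, its partner in type I collagen, had 57, 80 and 80 reads in EV and 29, 71 and 50 in PRL3, with a log2 fold change of -0.80 (SE 0.43, adjusted p = 0.146). COL2A1 (-0.40, SE 0.34), COL5A3 (-0.73, SE 0.45) and COL24A1 (-0.0049, SE 0.43) did not pass either.

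COL27A1, a fibrillar chain on chromosome 9 (114155537 to 114312511) with a role in cartilage, stood on the other side. It had 6784, 8441 and 8160 normalized counts in EV and 9477, 10311 and 8973 in PRL3, so that its lowest PRL3 library exceeded its highest EV library. The log2 fold change of 0.30 (SE 0.15, adjusted p = 0.123) did not pass the threshold. It passed with upper-quartile scaling (0.47, adjusted p = 0.0203) and with library size alone (0.79, adjusted p = 0.000622), and turned to -0.18 with uniquely aligned reads as the library size (all from edgeR with Benjamini-Hochberg adjustment). Relative to COL4A2 in the same library it went from a log2 ratio of -1.28 ± 0.16 to -0.32 ± 0.09 (SD, n = 3). COL11A1, with between 43.6 and 66.2 normalized counts in EV and between 90.6 and 102 in PRL3, had a log2 fold change of 0.76 (SE 0.37, adjusted p = 0.121). It passed with library size alone (1.25, adjusted p = 0.0139) and with protein-coding genes only (0.94, adjusted p = 0.0482), both from edgeR.

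Of the FACITs, the type IX chains COL9A3 and COL9A2 fell and COL12A1 rose. COL9A3 had 22613, 30320 and 21066 normalized counts in EV and 5156, 8068 and 6538 in PRL3, a log2 fold change of -1.90 (SE 0.20, adjusted p = 1.64e-05), or 3.74 times as much in EV. COL9A2 had 874, 1195 and 888 in EV and 394, 524 and 485 in PRL3, a log2 fold change of -1.07 (SE 0.20, adjusted p = 0.000785). The ratio of COL9A2 to COL9A3 within a library rose from -4.44 ± 0.07 to -3.60 ± 0.13 on the log2 scale, with no overlap, so COL9A3 and COL9A2 did not fall by the same factor. COL9A1, the third chain, had 28.0, 39.7 and 0 normalized counts in EV and 16.5, 9.67 and 27.9 in PRL3, and with overlapping libraries its log2 fold change of -0.32 (SE 1.07, adjusted p = 0.836 from edgeR) did not pass.

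COL12A1, on chromosome 6 (75084326 to 75206267), makes a chain that binds the surface of type I fibrils in tendon and dermis. It had 2125, 1782 and 1870 normalized counts in EV and 3194, 3404 and 4120 in PRL3, and a log2 fold change of 0.89 (SE 0.16, adjusted p = 0.000555). With uniquely aligned reads as the library size it was 0.41 (adjusted p = 0.0718, edgeR) and did not pass. Against COL4A2 in the same library its log2 ratio went from -3.72 ± 0.33 to -2.18 ± 0.22 (SD, n = 3), without overlap.

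COL19A1, a FACIT, and COL13A1, a transmembrane collagen of cell junctions, had non-overlapping groups as well, with PRL3 above, and did not pass. COL19A1 had 2874, 2623 and 2962 normalized counts in EV and 3485, 3355 and 3283 in PRL3 (log2 fold change 0.26, SE 0.14). COL13A1 had 1734, 1915 and 1703 in EV and 2066, 2523 and 2082 in PRL3 (0.32, SE 0.15). With library size alone both passed (0.75 and 0.81), and with uniquely aligned reads both turned negative (-0.22 and -0.16). COL17A1, the transmembrane collagen of hemidesmosomes, had between 30.1 and 60.0 in EV and between 61.8 and 122 in PRL3 (1.04, SE 0.43, adjusted p = 0.0679 in edgeR). It passed with upper-quartile factors (adjusted p = 0.034), with library size alone (0.0112), with at least 10 counts in every library (0.0375) and with protein-coding genes only (0.027). COL16A1 had a log2 fold change of 0.10 (SE 0.16) with overlapping libraries. It passed with library size alone (0.59, adjusted p = 0.00862, edgeR) and turned to -0.37 with uniquely aligned reads.

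COL8A2, a short-chain network collagen of the cornea, had the most negative fold change on the least even counts. It had 14, 27 and 172 reads in the EV libraries and 8, 25 and 2 in the PRL3 libraries, and the normalized counts of the groups overlapped. The log2 fold change was -2.78 (SE 0.88, adjusted p = 0.0206), and without EV 3 it was -1.33 (adjusted p = 0.22), both from edgeR. It also missed the threshold without PRL3 9 (adjusted p = 0.0773), without PRL3 11 (adjusted p = 0.0798) and with limma-voom (adjusted p = 0.0793). COL8A1, its partner gene, had between 185 and 235 normalized counts in EV and between 144 and 174 in PRL3 (-0.48, SE 0.26).

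The remaining genes were close to silent. The tested genes COL3A1, COL4A4, COL9A1, COL14A1, COL20A1, COL21A1 and COL22A1 averaged under 50 normalized counts over the 6 libraries and none passed the threshold. COL4A3, COL6A5, COL6A6, COL10A1, COL23A1, COL25A1, COL26A1 and COL28A1 did not pass the filter on low counts, and their highest count in any library was 12 reads. COL10A1, the collagen of growth-plate cartilage, had 1 read in all. A count of 0 allows up to 3 reads, which is 2.23 to 3.65 normalized counts depending on the library, so low nascent RNA from these genes was not detectable at this depth, and such limits cover counting error only.

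Shorter genes carried most of the falls. Of the 17 tested collagen genes that span under 100 kb, 9 were lower, with a median log2 fold change of -0.90, and 36.7% of protein-coding genes of that span were lower, with a median of -0.27. Of the 19 that span 100 kb or more, 4 were lower and 1 was higher, with a median of -0.30, and of protein-coding genes 12.8% were lower and 22.5% higher, with a median of 0.14. Across the 36 genes, Spearman's rho with the fold change was 0.54 for gene span, 0.62 for the number of exons and -0.47 for the exon percent of the span. Over 14443 protein-coding genes the same rho were 0.30, 0.14 and -0.20. These are correlations across genes that share the same 6 libraries, and genes are not independent replicates.

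**Figure D4:**
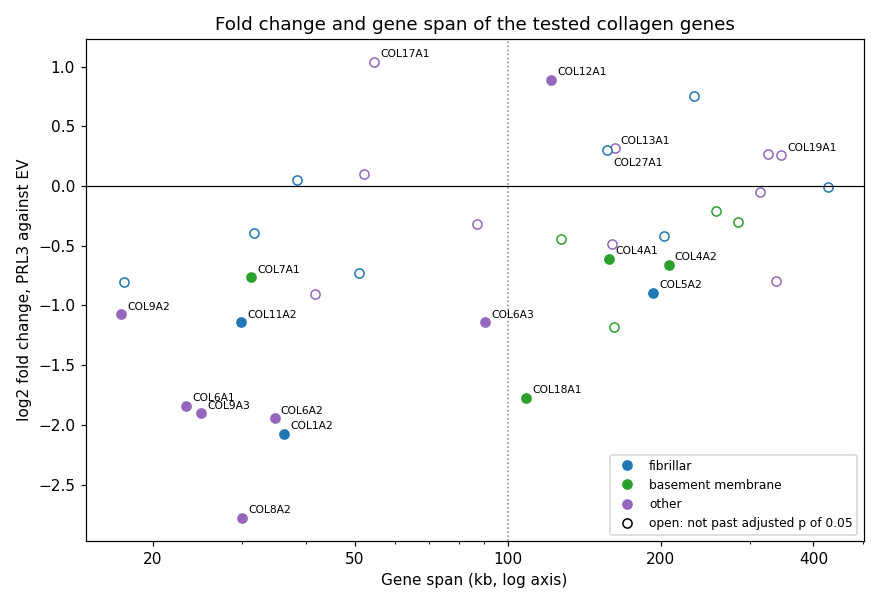
Log2 fold change of PRL3 against EV by gene span in kb (log axis) for the 36 tested collagen genes, coloured by class, filled where the adjusted p was under 0.05, with a dotted line at 100 kb. The 17 shorter genes have a median of -0.90 and the 19 longer ones a median of -0.30.

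Some annotated genes lie within collagen introns on the same strand and were counted apart. The miRNA gene MIR8073 in COL4A2 had 11, 11 and 68 reads in EV and 88, 170 and 82 in PRL3. It was higher by 1.76 on the log2 scale (SE 0.57, adjusted p = 0.0246, edgeR) while the exon counts of COL4A2 were lower. With 1 library left out it missed the threshold in 5 of 6 fits (adjusted p up to 0.103, without PRL3 10), and it missed it with uniquely aligned reads (0.0619, edgeR). ENSG00000279237 in COL4A1 had 29, 41 and 226 reads in EV and 256, 337 and 200 in PRL3, with a log2 fold change of 1.31 (SE 0.51, adjusted p = 0.0524). MIR455 in COL27A1 had 13, 26 and 34 reads in EV and 32, 76 and 65 in PRL3 (1.02, adjusted p = 0.148 from edgeR). These counts come from RNA of any length in the gene's bounds, so they can hold reads of the host intron and do not measure a mature miRNA. On the opposite strand, COL4A2-AS1 was higher (1.54, SE 0.57, adjusted p = 0.0422 in edgeR, and up to 0.19 with 1 library left out), with 11 to 24 normalized counts in EV and 42 to 63 in PRL3.

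The machinery that modifies and folds collagen chains was lower in most of its members. Of the 19 listed genes, 14 were lower and 1 was higher, with a median log2 fold change of -0.73, beside 31.6% lower and 15.2% higher among all protein-coding genes tested. With library size alone 6 were lower and 1 higher, beside 12.9% lower and 39.8% higher among all genes. PPIB, a prolyl isomerase of the ER, had 31967, 39589 and 29998 normalized counts in EV and 7791, 9588 and 7712 in PRL3, a log2 fold change of -2.02 (SE 0.17). P4HB, the disulfide isomerase that is the beta subunit of prolyl 4-hydroxylase, had -1.73 (SE 0.17), FKBP10, another isomerase, -1.45 (SE 0.15), and the lysyl hydroxylases PLOD3 and PLOD1 -1.49 and -1.26. SERPINH1, the collagen chaperone HSP47, had 9200, 11326 and 9953 in EV and 4936, 7007 and 5824 in PRL3, a log2 fold change of -0.78 (SE 0.17), and P4HA1, a catalytic prolyl hydroxylase subunit, had -0.54. SERPINH1 did not pass with library size alone (-0.29, adjusted p = 0.11), nor did P4HA1 there (adjusted p = 0.829), with upper-quartile factors (0.123) or with protein-coding genes only (0.112). PLOD2, the lysyl hydroxylase of the collagen ends, had 0.04 (SE 0.21) and overlapping libraries. The 1 higher gene, picked out here after its value was seen, was FKBP14 (0.54), which did not pass with RLE factors (adjusted p = 0.0552) or with uniquely aligned reads as the library size (0.06, adjusted p = 0.853, edgeR).

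Export and trimming were mixed. Of 8 genes for export from the ER, 4 were lower, beside 31.6% of protein-coding genes, with a median of -0.38: the ubiquitin ligase adaptor KLHL12 (-0.78) and its co-adaptors PEF1 (-0.59) and PDCD6 (-0.54), and the COPII coat gene SEC23A (-0.75). Under library size alone 0 of the 8 were lower and 2 higher, with a median of 0.11, beside 12.9% and 39.8% of all genes. The adjusted p of the 4 named genes ran from 0.144 to 0.772 there (edgeR). PDCD6 also missed the threshold with upper-quartile factors (adjusted p = 0.067) and with protein-coding genes only (0.0623). Of 6 tested genes for propeptide removal, 2 were lower and 2 higher, with a median of 0.04, beside 31.6% and 15.2% of protein-coding genes. PCOLCE, which enhances C-propeptide cleavage, had 3553, 4422 and 3531 normalized counts in EV and 1313, 1362 and 1203 in PRL3 (-1.57, SE 0.16), and PCOLCE2 had -0.68. PCOLCE2 did not pass with upper-quartile factors (adjusted p = 0.0686) or library size alone (0.485). The proteases ADAMTS3 and TLL2 were higher by 0.55 and 1.12, and with uniquely aligned reads as the library size they did not pass (0.06 and 0.65). BMP1, the main C-proteinase, did not pass (-0.34, SE 0.18), though it did with uniquely aligned reads (-0.82).

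Crosslinking enzymes were lower in 4 of 5 tested genes, with a median of -1.20, beside 31.6% lower among protein-coding genes. The lysyl oxidases LOXL4 (-1.58, SE 0.17) and LOXL3 (-1.30, SE 0.16) fell most, PXDN, the peroxidase that makes the sulfilimine bonds of type IV collagen, fell by 1.20 on the log2 scale, and LOXL2 by 0.43. LOXL4 had between 13565 and 18785 normalized counts in EV and between 4732 and 6062 in PRL3. LOX itself had at most 10 reads and was not tested. With library size alone LOXL2 turned to 0.06, and it did not pass with upper-quartile factors (adjusted p = 0.18), protein-coding genes only (0.162) or the filter of at least 1 count (0.0595, all from edgeR).

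Of the 16 genes of collagen degradation and uptake, 10 were lower and 1 higher, with a median of -1.08. Among protein-coding genes 31.6% were lower and 15.2% higher. The collagenase MMP1 had 655, 719 and 494 normalized counts in EV and 114, 135 and 120 in PRL3 (-2.34, SE 0.24). The membrane proteases MMP15 (-2.26) and MMP14 (-1.55) and the protease inhibitor TIMP1 (-2.12, SE 0.16) fell too, so both proteases and an inhibitor of them were lower. MMP16, picked out after its value was seen, was the higher gene (0.51), and with uniquely aligned reads it had 0.03 and did not pass.

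Receptors for collagen were mixed. Of 8 tested, 3 were lower and 1 was higher, with a median of -0.07, beside 31.6% lower and 15.2% higher among protein-coding genes. With library size alone 3 were lower and 4 higher, with a median of 0.42, beside 12.9% and 39.8% of all genes. ITGA2, the alpha subunit of the integrin for fibrillar collagen, had 2101, 1362 and 1458 normalized counts in EV and 4310, 4215 and 4227 in PRL3, a rise of 1.37 on the log2 scale (SE 0.18, adjusted p = 5.58e-05). ITGB1, the beta subunit it pairs with, had 13091, 7363 and 8228 in EV and 4247, 4638 and 5165 in PRL3 (-1.03, SE 0.20, adjusted p = 0.00125). ITGA10 had -1.57 and DDR1, a receptor tyrosine kinase for collagen, -1.11.

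The partners of the collagens in the matrix were also lower more often than higher, as were protein-coding genes as a whole (31.6% lower, 15.2% higher). Of 15 basement membrane partners, 8 were lower, with a median of -0.41: the heparan sulfate proteoglycans AGRN (-1.35) and HSPG2 (-0.74), the laminin chains LAMB2 (-1.13), LAMA5 (-0.90) and LAMC1 (-0.52), and NID1 (-0.81), which links laminin to type IV collagen, among them. Under library size alone 2 of the 15 were lower and 5 higher, with a median of 0.094, beside 12.9% and 39.8% of all genes. LAMA5, LAMC1, NID1 and HSPG2 did not pass there (adjusted p = 0.0606, 0.88, 0.0768 and 0.246), and LAMC1 did not with upper-quartile factors (0.0594) or protein-coding genes only (0.0541). Of 11 tested fibril partners, 5 were lower and 1 higher, with a median of -0.52. The proteoglycan BGN fell by 2.18 on the log2 scale, the collagen-binding SPARC by 1.23, TGFBI by 1.10 and FN1 by 0.91, and THBS1, picked out after its value was seen, rose by 0.81. FN1 did not pass with library size alone (adjusted p = 0.065), nor did THBS1 with uniquely aligned reads (0.33, adjusted p = 0.198, edgeR). Of 11 genes of TGF-beta signalling, a pathway that drives collagen transcription in many cells, 1 was lower (the receptor TGFBR1, -0.84) and 2 were higher (the receptor TGFBR2, 0.67, and the target CCN2, 0.48), with a median of 0.17. TGFB1 had -0.43 and did not pass. These calls turn on the scaling: TGFBR1 did not pass with library size alone (-0.35, adjusted p = 0.147), and TGFBR2 (0.20, adjusted p = 0.391) and CCN2 (0.01, adjusted p = 0.97) did not with uniquely aligned reads, where TGFB1 was lower (-0.91, adjusted p = 0.00211).

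Over all 9 lists, 51 of 99 tested genes were lower and 8 higher, with a median of -0.52, beside 31.6% lower and 15.2% higher among protein-coding genes. Under library size alone 26 were lower and 24 higher, with a median of -0.020. Among all genes 12.9% were then lower and 39.8% higher, with a median of 0.60. With uniquely aligned reads 63 were lower and 1 higher, beside 35.5% and 8.17% of all genes. Leaving out 1 library ended some of these calls in edgeR. Without PRL3 11 they were lost for P4HA1 (adjusted p = 0.113), FKBP14, PCOLCE2, CCN2, ADAMTS3 (0.135), LOXL2 (0.18), PDCD6, PEF1 (0.0523), MMP16 (0.0894) and LAMC1 (0.0754), and the last 3 passed in the other 5 such fits. P4HA1, FKBP14 and CCN2 each passed in 1 of 6 fits without a library, PCOLCE2 in 2, ADAMTS3, LOXL2 and TLL2 in 3 and PDCD6 in 4. The highest adjusted p was 0.163 for FKBP14, 0.0877 for PCOLCE2 and 0.1 for PDCD6, each without PRL3 9, and 0.103 for CCN2 and 0.181 for TLL2, both without PRL3 10.

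**Figure D5:**
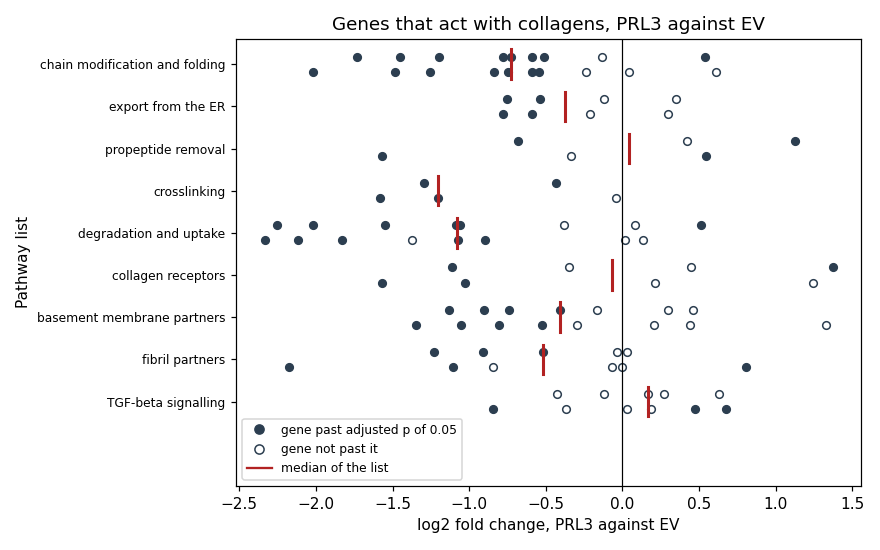
Log2 fold change of PRL3 against EV for the 99 tested genes that act with collagens, 1 row for each of 9 lists, with filled points for an adjusted p under 0.05 and a red bar at the median of the list. Crosslinking (median -1.20) and degradation (median -1.08) lie furthest to the left, and TGF-beta signalling (median 0.17) lies to the right of 0.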

How the data were processed

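The data are 6 libraries of 4sU-labelled RNA from A375 cells. The authors aligned reads to GRCh38 with STAR 2.5.1b and counted them per Ensembl gene with htseq-count of HTSeq 0.6.1 (reverse-strand setting), and the deposited values are raw counts without normalization. Symbols and coordinates came from GENCODE 44, which matched 57532 of 58243 identifiers. Groups were compared over the whole table in R 4.3.3 with edgeR 4.0.16 (TMM factors, filterByExpr, quasi-likelihood test, Benjamini-Hochberg adjustment, threshold 0.05), which left 23884 genes. SE were derived from the quasi-likelihood statistic. To normalize, each count was scaled from its effective library size to the mean of these sizes. Levels divide by merged exon length, which is of a later annotation than the counting. This length joins all annotated exons of a gene, such as 19271 bases for COL4A2 and 7319 for COL5A2. Which transcripts were in use was not determined, so levels of different genes compare only roughly. With 3 libraries against 3, an exact permutation test could not give a p below 0.1. The script was tested on simulated data. Counts of the most alike pair of libraries differed beyond sampling noise (mean chi-square per gene 24.7), which does not show that the libraries came from separate cultures. Each was entered as 1 sample.

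The collagen genes and all lists were chosen with earlier results of these data known. Values per library are given for each collagen gene past the threshold and the 10 with the highest EV level, and fold changes for tested collagen genes that passed it or averaged at least 50 normalized counts, a limit set after seeing the data, and for COL9A1, added later. Of each pathway list, the 4 genes with the smallest p were named, together with SERPINH1, P4HA1, P4HB, PLOD1, PLOD2, BMP1, LOX, LOXL2, MMP1, MMP14, ITGB1, DDR1, LAMC1, NID1, HSPG2, FN1 and SPARC. The alternatives were RLE and upper-quartile factors, library size alone, all uniquely aligned reads as library size, DESeq2 1.42.0, limma-voom (limma 3.58.1), filters of at least 1 count in any library and at least 10 counts in every library, protein-coding genes only, an adjusted p of 0.01, levels per 1000000 uniquely aligned reads, and leaving out each library.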

Additional observations from a re-analysis of the deposited data

Results flagged for a closer look

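MIR8073, an annotated miRNA gene in an intron of COL4A2 on the same strand, was singled out because its signal lies outside the collagen counts and was above the level of the control libraries. Its log2 fold change was 1.76 (adjusted p = 0.0246, edgeR), which missed the threshold in 5 of 6 fits without 1 library, with 13.4, 13.2 and 61.8 normalized counts in the EV libraries and 90.6, 127 and 87.9 in the PRL3 libraries. EV 3, the highest EV library here, also had the largest share of reads outside exons in its group (41.1%), and the part of that share in this value was not tested. Reads of the host COL4A2 intron within the bounds of MIR8073 would be counted with it.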

How the results depend on the processing

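No paired analysis was possible because EV and PRL3 libraries carry different numbers. The 14 collagen genes past the threshold were refitted under the alternatives that keep all libraries, which gave 139 fits: 133 kept direction and threshold, 6 kept the direction only and 0 reversed. Of 84 fits without 1 library, 81 kept both and 3, all of COL8A2, kept the direction only. Library size alone gave 3078 lower and 9514 higher genes in all, 7 collagen genes higher, and medians of -0.052 (all collagen genes), 0.071 (fibrillar), -0.14 (basement membrane) and 0.015 (other), with COL2A1 at 0.071, COL4A5 at 0.29, COL4A6 at 0.18, COL5A1 at 0.078, COL8A1 at 0.015, COL15A1 at 0.063, COL24A1 at 0.50, COL9A1 at 0.22, AXL at 0.093, LOXL2 at 0.060, TGFB1 at 0.070 and BMP1 at 0.16. Uniquely aligned reads as library size gave 8473 lower and 1952 higher genes, 0 collagen genes higher, a median of -0.36 over all genes and medians of -1.03 (all collagen genes), -0.90 (fibrillar), -1.11 (basement membrane) and -0.97 (other), with COL13A1 at -0.16, COL16A1 at -0.37, COL19A1 at -0.22, COL27A1 at -0.18 and PLOD2 at -0.44. Upper-quartile factors gave 5 collagen genes higher and medians of -0.37 (all), -0.46 (basement membrane) and -0.30 (other), and protein-coding genes only gave 6 and medians of -0.36, -0.45 and -0.30. COL24A1 was 0.18 under both, 0.012 with limma-voom, 0.023 with at least 1 count in any library and 0.040 with at least 10 counts in every library, which gave 2 collagen genes higher. limma-voom gave a median of 0.10 for the other collagens and 1.31 for COL9A1, and an adjusted p of 0.01 left 2719 higher genes. Without 1 library, the count of collagen genes higher ranged from 1 to 2, the median of the other collagens from -0.77 to -0.42, COL24A1 from -0.24 to 0.21, COL9A1 from -0.93 to 0.40 and PLOD2 from -0.11 to 0.31. Apart from scalings and filters, which act by construction, the cause of these changes was not tested. Levels per 1000000 uniquely aligned reads were lower in all 10 genes, such as 56.6 and 10.8 for COL9A3 in EV and PRL3. The depth limits genes under 50 normalized counts, whose fold changes have wide errors.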

Other observations

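Markers of other cell types were measured beside the collagens. The summed level of 7 fibroblast markers was 3.30 to 4.43 reads per kilobase of exon per 1000000 gene counts in EV and 3.46 to 4.34 in PRL3. Of the 7, 1 was lower, FBLN1 (-1.30, SE 0.26), beside 31.6% lower among protein-coding genes. DCN and LUM, which define matrix fibroblasts, had 15.5 to 66.2 and 59.5 to 123 normalized counts over the 6 libraries. The 4 endothelial markers summed to 0.736 to 1.18 in EV and 1.52 to 1.69 in PRL3, with PECAM1 and CDH5 at no more than 7 reads. The 4 epithelial markers summed to 8.41 to 10.3 in EV and 4.18 to 6.64 in PRL3, nearly all of it KRT14, which had 1083, 1159 and 1217 normalized counts in EV and 426, 614 and 352 in PRL3 (-1.31, SE 0.21), and the 4 immune markers summed to at most 0.910. Markers of the dedifferentiated melanoma state were mixed: SOX9, a transcription factor that acts on collagen genes in cartilage, had 200, 348 and 258 normalized counts in EV and 73.1, 52.8 and 64.3 in PRL3 (-2.08, SE 0.31), and NGFR had -1.69. AXL had -0.40. It did not pass with library size alone, upper-quartile factors, protein-coding genes only or the filter of at least 1 count (adjusted p = 0.098, edgeR). With 1 library left out it missed the threshold in 4 fits (adjusted p up to 0.171, edgeR). EGFR (0.09) and WNT5A (0.43) did not pass the threshold. The part of SOX9 in the collagen values was not tested.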
